A study of Mus musculus with 16 samples.

Results

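Marker genes of liver macrophages were followed across 16 RNA-seq libraries of mouse liver. The 34 genes were chosen by name, as the rows of the deposited tables whose symbol matches a fixed list, and make up 34 of 55487 rows. They fall into 8 markers of resident Kupffer cells, 3 chains of complement C1q, 11 genes shared by macrophages and other myeloid cells, 5 markers of lipid-associated macrophages and 7 markers of recruited monocytes and macrophages. There were 6 Flpo libraries, from livers whose labels name the 7b isoform of JNK, the c-Jun N-terminal kinase, 5 Cre libraries, from livers labelled with the 7a isoform, and 5 GFP libraries, which are the controls. Every library, controls included, is labelled with the genotype J1 J2 lf/lf and the strain C57/Bl6J, all mice were fed a high-fat diet, and the manipulation is described as specific to hepatocytes. Cre and Flpo are DNA recombinases. The age and sex of the mice, the vehicle of the recombinases and the hour of harvest are not stated. The macrophages themselves were not sorted, so each value is the share of whole-liver RNA that a marker took.

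Kupffer cells are the macrophages that live in the sinusoids of the liver and clear particles, lipoproteins and bacteria from portal blood. They keep their own numbers by division and carry receptors such as Clec4f, Vsig4, Timd4 and Marco. When they are lost, as can happen in fatty liver disease, monocytes enter from blood along chemokines such as Ccl2 and its receptor Ccr2, and some turn into lipid-associated macrophages that express Trem2, Gpnmb, Cd9 and Spp1. In bulk liver RNA, fewer cells of a type and less RNA per cell cannot be told apart.

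The 16 libraries held 27929393 to 36043322 estimated counts each. The hepatocyte marker Alb stood at 37823 to 48545 TPM in Flpo, 32370 to 54714 in Cre and 37999 to 44425 in GFP. TPM is abundance per gene length, scaled so that each library has the same sum. All 34 genes had counts in all 16 libraries and passed the filter on low counts, 14 of them with at least 100 counts in every library and 9 with fewer than 20 in at least 1 library. Gene-level counts of Mapk8 and Mapk9, which encode JNK1 and JNK2, cannot show which exon was used and so do not check the labels. Title numbers form 1 block per group, and a batch that follows them cannot be told apart from the group.

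The promoter letters are given for the genes on which the results below turn: a pair of neighbouring C1q genes whose levels moved together over the libraries, and the 3 markers that were called in any comparison. The sequences are RefSeq promoters of build GRCm38.p6, the 250 bases before the annotated start, and 27 of the 34 genes had an entry. Of 2 starts listed for Spp1, the more upstream is shown. Capitals mark GAGGAAG or its reverse complement, a core bound by PU.1, the transcription factor that defines the myeloid lineage.
C1qb, chr4:136886201-136886450, minus strand: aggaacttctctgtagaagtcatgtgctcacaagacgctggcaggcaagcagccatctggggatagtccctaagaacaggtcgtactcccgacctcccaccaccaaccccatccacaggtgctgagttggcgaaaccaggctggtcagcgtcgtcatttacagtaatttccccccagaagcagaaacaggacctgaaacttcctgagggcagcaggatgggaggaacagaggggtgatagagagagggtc
C1qc, chr4:136892915-136893164, minus strand: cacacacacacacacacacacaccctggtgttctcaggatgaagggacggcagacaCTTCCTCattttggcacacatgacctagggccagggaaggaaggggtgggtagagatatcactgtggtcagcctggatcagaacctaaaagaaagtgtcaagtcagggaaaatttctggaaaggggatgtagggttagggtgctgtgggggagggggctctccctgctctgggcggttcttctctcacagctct
Spp1, chr5:104434861-104435110, plus strand: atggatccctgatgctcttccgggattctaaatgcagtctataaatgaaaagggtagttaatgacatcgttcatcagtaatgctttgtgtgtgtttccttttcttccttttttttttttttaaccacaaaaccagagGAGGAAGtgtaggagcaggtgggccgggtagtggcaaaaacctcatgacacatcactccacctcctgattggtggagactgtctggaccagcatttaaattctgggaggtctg
Cd9, chr6:125494761-125495010, minus strand: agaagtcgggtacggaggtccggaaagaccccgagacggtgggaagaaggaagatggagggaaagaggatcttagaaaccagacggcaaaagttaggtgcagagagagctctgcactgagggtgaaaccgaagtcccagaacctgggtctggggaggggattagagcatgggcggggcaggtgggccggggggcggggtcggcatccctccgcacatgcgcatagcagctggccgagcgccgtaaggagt
Cx3cr1, chr9:120068297-120068546, minus strand: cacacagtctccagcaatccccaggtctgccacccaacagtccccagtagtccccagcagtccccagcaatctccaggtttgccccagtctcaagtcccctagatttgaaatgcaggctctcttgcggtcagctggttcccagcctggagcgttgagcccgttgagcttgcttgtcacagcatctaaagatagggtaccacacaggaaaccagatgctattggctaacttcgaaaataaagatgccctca

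The PU.1 core was found on either strand in 12 of 31 member promoters, from 11 of 27 genes, and in 10.6% of the 32851 promoters in the table. It began 194 bases before the start of C1qc and 113 bases before that of Spp1, and these letters are not in the windows shown for C1qb, Cd9 and Cx3cr1. The AP-1 letters TGANTCA, which the transcription factors downstream of JNK can bind, were found on either strand in 5 of 31 member promoters (Cd68, Folr2, Itgax, Mmp12 and Trem2) and in 6.75% of all promoters. The AP-1 letters are not in the 5 windows printed, so the motifs do not overlap there. A match is a description of the letters and not evidence of binding.

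Resident Kupffer cell genes were expressed in every library, led by Clec4f, a C-type lectin that in mouse is restricted to Kupffer cells, and Cd5l, a secreted scavenger protein. None of the 8 passed the test in any comparison. Clec4f stood at 15.1, 34.7 and 55.8 TPM in Flpo (lowest, median and highest of 6), at 22.9, 37.7, 38.0, 24.1 and 24.1 TPM in Cre, and at 23.2, 28.8, 32.3, 39.1 and 38.9 TPM in GFP. The Flpo libraries enclosed the whole range of both other groups. The log2 fold change was 0.13 in Flpo against Cre (SE 0.27, 95% interval -0.45 to 0.71), 0.05 in Cre against GFP (SE 0.29, interval -0.55 to 0.66) and 0.19 in Flpo against GFP (SE 0.27, interval -0.39 to 0.77).

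Adgre1 encodes F4/80, the surface protein by which mouse macrophages are usually recognised. Its level was 1.34, 3.16 and 4.96 TPM in Flpo (lowest, median and highest), 1.39, 1.34, 1.41, 1.79 and 2.35 TPM in Cre, and 2.59, 2.01, 2.04, 3.29 and 2.39 TPM in GFP. In TPM, Flpo replicate 2 was as low as the lowest Cre library and the other 5 Flpo libraries lay above all 5 Cre libraries. In CPM, counts relative to the TMM-scaled library total, Cre replicate 5 (6.58) lay above Flpo replicates 5 and 6 (6.23 and 6.22). Flpo against Cre gave a log2 fold change of 0.72 (SE 0.25, interval 0.20 to 1.25), which missed the threshold of 0.05 (adjusted p = 0.0630, edgeR's quasi-likelihood test, Benjamini-Hochberg adjustment over 13905 genes). It passed without Flpo replicate 2 (0.86, adjusted p = 0.0120) and without Cre replicate 5 (0.89, adjusted p = 0.0312). With each of the 16 libraries left out in turn, it passed only in these 2 fits. In the other 14 it missed the threshold, with an adjusted p of up to 0.167.

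Marco, a scavenger receptor for bacteria and particles, had the widest range of the 8 genes, 11.1-fold over the 16 libraries. It stood at 2.17, 5.75 and 20.5 TPM in Flpo (lowest, median and highest), at 3.47, 2.77, 3.70, 2.55 and 5.70 TPM in Cre, and at 1.85, 2.93, 3.96, 4.38 and 2.44 TPM in GFP. Flpo replicate 3 held the highest value, and Flpo replicates 2, 5 and 6 lay within the GFP range. The log2 fold change in Flpo against GFP was 1.32 (SE 0.47, interval 0.33 to 2.31, adjusted p = 0.400), and in Flpo against Cre it was 0.90 (SE 0.46, adjusted p = 0.226).

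Timd4, a receptor for phosphatidylserine that marks long-lived Kupffer cells, averaged 1.65 ± 0.816 TPM in Flpo (SD, n = 6), 0.948 ± 0.165 TPM in Cre and 1.61 ± 0.413 TPM in GFP (n = 5 each). In TPM the Cre libraries, at 0.738 to 1.12, all lay below the lowest GFP library at 1.17. In CPM the groups overlapped, with Cre replicates 3 and 5 at 2.18 and 1.81 and GFP replicate 1 at 1.77. The log2 fold change in Cre against GFP was -0.60 and did not pass the test (SE 0.32, adjusted p = 0.270). Cd5l averaged 36.3 ± 11.6 TPM in Flpo, 21.4 ± 3.76 in Cre and 29.6 ± 8.57 in GFP, and Vsig4, a complement receptor, 11.5 ± 3.28, 7.63 ± 1.15 and 9.37 ± 1.85 TPM in the same order. For Cd5l, Flpo against Cre gave 0.54 (SE 0.23, adjusted p = 0.148). The haemoglobin scavenger receptor Cd163 and the folate receptor Folr2 differed by less, with log2 fold changes between -0.34 and 0.33 in the 3 comparisons.

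C1q is the molecule that starts the classical complement pathway, and liver macrophages make it. Its 3 chains varied less in their ratios than in their levels. C1qa, C1qb and C1qc are neighbours on chromosome 4, between 136880129 and 136898803 of GRCm38, all on the minus strand. C1qa stood at 28.7, 51.0 and 63.3 TPM in Flpo (lowest, median and highest), at 32.7, 36.1, 29.9, 20.5 and 34.8 TPM in Cre, and at 35.9, 41.5, 34.5, 54.3 and 47.3 TPM in GFP. C1qb was 0.735 to 1.12 times and C1qc 0.535 to 0.736 times C1qa over the 16 libraries, while C1qa itself spanned 3.09-fold. These ratios spanned 1.52-fold and 1.38-fold, where the levels of C1qb and C1qc spanned 2.34-fold and 2.56-fold. In Flpo against Cre the log2 fold changes were 0.44 for C1qa (SE 0.20, adjusted p = 0.160), 0.37 for C1qb (SE 0.18, adjusted p = 0.202) and 0.41 for C1qc (SE 0.20, adjusted p = 0.195). In Cre against GFP they were -0.27, -0.18 and -0.25, and in Flpo against GFP 0.17, 0.19 and 0.16, and the smallest adjusted p of these was 0.457.

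**Figure D1:**
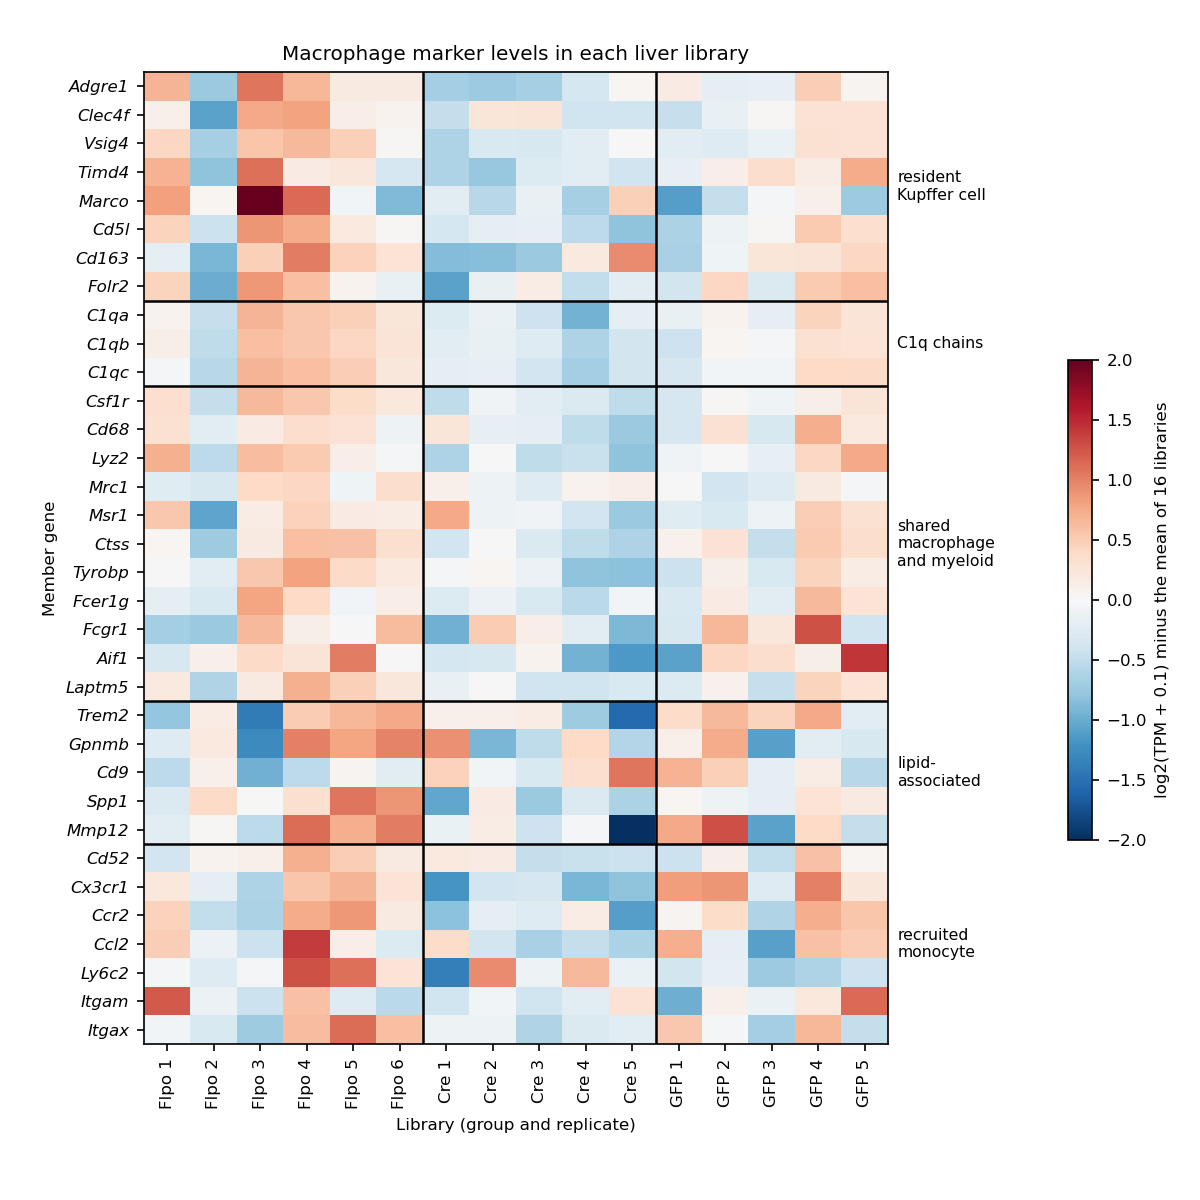
Level of each of the 34 genes (rows, grouped by role) in each of the 16 libraries (columns, Flpo, Cre and GFP), as log2(TPM + 0.1) minus the mean of the 16 libraries, with colours capped at 2 in either direction. Flpo replicate 3 was the highest library for 8 of the 11 resident and C1q genes, and Flpo replicate 2 was the lowest for 5 of them.

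Among the 11 shared macrophage and myeloid genes no member passed the test in any comparison. Csf1r is the receptor for the growth factors on which Kupffer cells depend. It stood at 4.82, 8.62 and 10.7 TPM in Flpo (lowest, median and highest), at 4.69, 6.42, 5.81, 5.47 and 4.72 TPM in Cre, and at 5.29, 6.82, 6.32, 7.34 and 8.03 TPM in GFP. All Flpo libraries but replicate 2 lay above all Cre libraries. The log2 fold change in Flpo against Cre was 0.41 (SE 0.17, interval 0.06 to 0.76, adjusted p = 0.121, edgeR's quasi-likelihood test). Without Flpo replicate 2 it was 0.50 and passed (adjusted p = 0.0288). That was the only 1 of the 16 leave-one-out fits to pass. In the other 15 the log2 fold change was as low as 0.30 and the adjusted p as high as 0.268.

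Lyz2, the lysozyme of monocytes, macrophages and neutrophils, was the most abundant gene of this group. It averaged 45.3 ± 13.4 TPM in Flpo, 27.0 ± 5.998 TPM in Cre and 43.4 ± 12.5 TPM in GFP. The log2 fold changes of 0.53 in Flpo against Cre (SE 0.22, adjusted p = 0.128) and -0.50 in Cre against GFP (SE 0.23, adjusted p = 0.187) missed the threshold. Its near copy Lyz1 was at 0 to 0.576 TPM over the libraries, and how reads were split between the copies is uncertain. Aif1, a calcium-binding protein of activated macrophages, spanned 2.37 to 13.8 TPM within GFP alone. Mrc1, the mannose receptor, which sinusoidal endothelial cells also express, averaged 4.42 ± 1.03 TPM in Flpo, 4.06 ± 0.465 in Cre and 3.83 ± 0.605 in GFP. In mean CPM, the scale on which the fold changes were fitted, Mrc1 stood lower in Flpo (15.5) than in Cre (16.5). Its log2 fold change in Flpo against Cre was -0.09 (interval -0.39 to 0.21). Msr1, a scavenger receptor for modified lipoproteins, gave -0.05 there (interval -0.67 to 0.56). These were 2 of the 3 negative values among the 34 genes in that comparison.

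The adaptor genes Tyrobp and Fcer1g, which carry signals from Trem2 and from Fc receptors, gave log2 fold changes of 0.38 (SE 0.23) and 0.21 (SE 0.21) in Flpo against Cre. Fcgr1, the high-affinity receptor for immunoglobulin G, gave 0.07 (SE 0.39). The lysosomal genes Cd68, Ctss and Laptm5 gave 0.17, 0.35 and 0.27, each with an interval that included 0. Over the 11 genes the median log2 fold change was 0.27 in Flpo against Cre, -0.21 in Cre against GFP and 0.03 in Flpo against GFP, where the medians over all genes tested were -0.005, 0.001 and -0.005.

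Of the 5 lipid-associated macrophage genes, Cd9 fell and Spp1 rose in Flpo against Cre, and Trem2, Gpnmb and Mmp12 passed in no comparison. In Flpo against Cre 13.7% of all genes tested were called, 7.45% higher and 6.26% lower, so the 2 of 34 genes called here, 5.88%, were fewer than that share. Cd9, a tetraspanin of the cell surface, stood at 7.98, 12.2 and 16.8 TPM in Flpo (lowest, median and highest), at 21.7, 15.1, 12.8, 19.8 and 32.9 TPM in Cre, and at 25.5, 21.99, 13.85, 17.4 and 10.6 TPM in GFP. Cre replicate 5 held the highest value, and Cre replicates 2 and 3 lay within the Flpo range. Between groups the log2 fold change was -0.89 in Flpo against Cre (SE 0.25, interval -1.41 to -0.36, adjusted p = 0.0250), 0.39 in Cre against GFP (SE 0.26, adjusted p = 0.387) and -0.50 in Flpo against GFP (SE 0.25, adjusted p = 0.536). The first of these missed the threshold without Cre replicate 5 (log2 fold change -0.64, adjusted p = 0.0795), without Flpo replicate 3 (-0.80, adjusted p = 0.0510) and without Flpo replicate 4 (-0.84, adjusted p = 0.0537).

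Spp1 encodes osteopontin, a secreted phosphoprotein that promotes fibrosis. It stood at 29.9, 46.7 and 76.8 TPM in Flpo (lowest, median and highest), at 17.8, 40.9, 21.8, 29.8 and 23.6 TPM in Cre, and at 37.6, 34.2, 32.3, 44.2 and 41.4 TPM in GFP. Cre replicate 2 lay inside the Flpo range and Cre replicate 4 at its lower edge, just below it in TPM and just inside it in CPM, while the 5 GFP libraries lay close together inside it. On the log2 scale the fold change was 0.71 in Flpo against Cre (SE 0.23, interval 0.23 to 1.199, adjusted p = 0.0478), -0.32 in Cre against GFP (SE 0.24, adjusted p = 0.447) and 0.39 in Flpo against GFP (SE 0.23, adjusted p = 0.594). The call in Flpo against Cre rested on a value just under the threshold: it was lost when any of 13 of the 16 libraries was left out, with a log2 fold change of 0.55 to 0.75 in those fits. The 3 libraries without which it held were Cre replicate 2 and Flpo replicates 1 and 3.

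Cd9 and Spp1 are also expressed by bile duct cells, and the summed level of the 8 cholangiocyte markers was 9.08 to 12.4 TPM in Flpo, 10.7 to 14.3 in Cre and 9.05 to 12.7 in GFP. In Flpo against Cre 1 of the 6 tested cholangiocyte markers was higher (Pkhd1, log2 fold change 0.64, adjusted p = 0.0492) and 1 was lower (Sox9, -1.68, adjusted p = 2.96e-04), and Krt19 averaged 0.861 ± 0.245 TPM in Flpo, 0.752 ± 0.275 in Cre and 0.940 ± 0.353 in GFP. The 2 called cholangiocyte markers were 33.3% of those tested, where 13.7% of all genes tested were called. The part of bile duct cells in the levels of Cd9 and Spp1 was not tested.

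Trem2, the lipid receptor for which these macrophages are best known, was low. It stood at 0.633, 2.36 and 3.19 TPM in Flpo (lowest, median and highest), at 1.99, 1.99, 2.05, 1.09 and 0.558 TPM in Cre, and at 2.39, 2.96, 2.54, 3.19 and 1.58 TPM in GFP. Its lowest values were in Cre replicate 5 and in Flpo replicate 3, the library with the most resident Kupffer cell RNA. Its log2 fold change was 0.19 in Flpo against Cre (interval -0.66 to 1.04), -0.50 in Cre against GFP (interval -1.38 to 0.39) and -0.30 in Flpo against GFP (interval -1.14 to 0.53), so these data do not fix its direction.

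Gpnmb, a glycoprotein of lysosomes, ranged from 0.192 to 1.31 TPM and Mmp12, the macrophage elastase, from 0.156 to 3.73 TPM over the 16 libraries. The lowest Mmp12 value, in Cre replicate 5, came from 5.80 counts. Flpo against Cre gave log2 fold changes of 0.27 for Gpnmb (SE 0.47) and 0.69 for Mmp12 (SE 0.48).

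**Figure D2:**
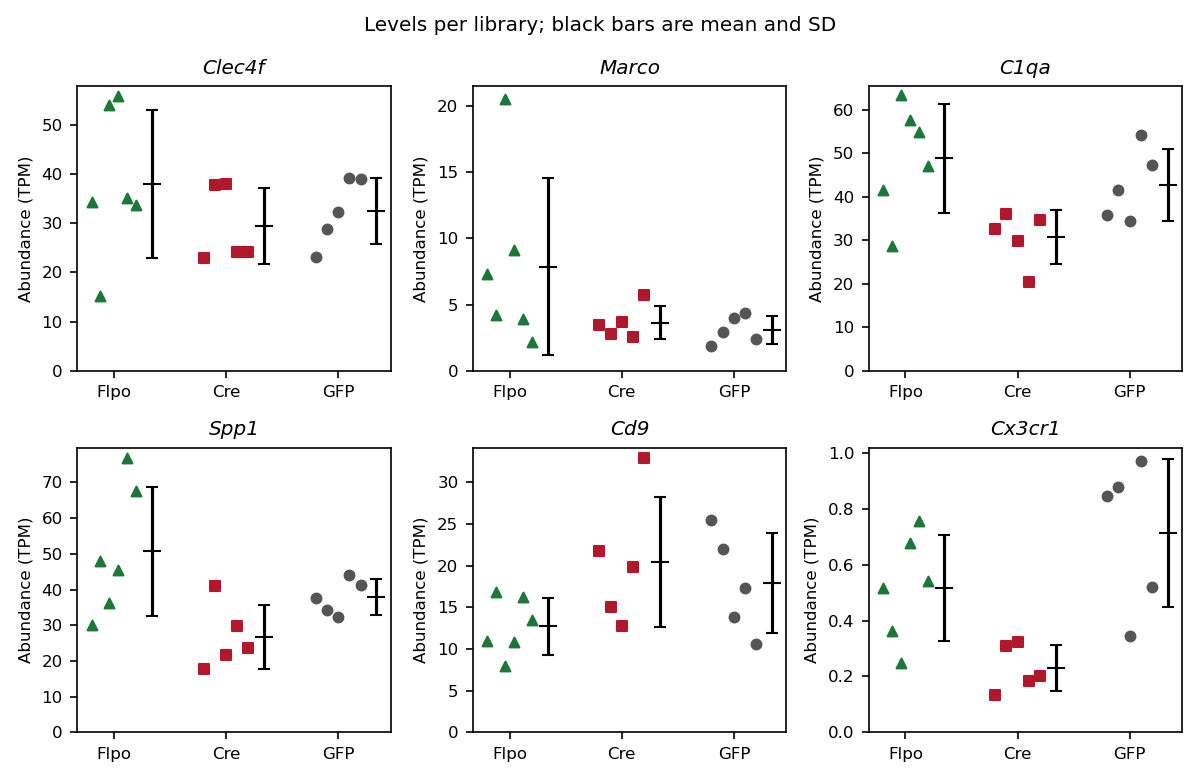
Abundance in TPM (linear axes from 0) of Clec4f, Marco, C1qa, Spp1, Cd9 and Cx3cr1 in each Flpo, Cre and GFP library, with the mean and SD of each group as black bars. Cx3cr1 in Cre (0.134 to 0.322 TPM) lay below all GFP libraries (0.346 to 0.969 TPM), and Spp1 in Cre lay at or below the lower edge of the Flpo range except for replicate 2.

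The strongest difference among the recruited monocyte and macrophage genes was in Cx3cr1, the receptor for fractalkine on patrolling monocytes and some tissue macrophages. It fell in Cre against GFP and was the single gene called among the 34 in that comparison (2.94%), where 9.55% of all genes tested were called, 3.97% higher and 5.58% lower. The level was 0.248, 0.529 and 0.756 TPM in Flpo (lowest, median and highest), 0.134, 0.308, 0.322, 0.183 and 0.203 TPM in Cre, and 0.844, 0.877, 0.346, 0.969 and 0.521 TPM in GFP. In TPM every Cre library lay below every GFP library, and the Flpo libraries overlapped both. On the scale of CPM, counts relative to the TMM-scaled library total, the ranges of Cre and GFP overlapped for all 34 genes, Cx3cr1 included, where 8.2% of all genes tested had ranges that did not overlap.

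The log2 fold change of Cx3cr1 was -1.40 in Cre against GFP (SE 0.35, interval -2.14 to -0.65, adjusted p = 0.0184), 0.92 in Flpo against Cre (SE 0.34, interval 0.20 to 1.64, adjusted p = 0.0843) and -0.48 in Flpo against GFP (SE 0.32, adjusted p = 0.672). The first of these is a difference in a gene with 12.8 to 83.7 counts per library, and it passed without each of the 16 libraries in turn, with an adjusted p of 0.0116 to 0.0484. Cx3cr1 lies on chromosome 9 from 119901616 to 120069879, and its exons overlap those of an antisense gene, Gm33858. The use of strand in counting is not given in the sources used here, so reads of both genes cannot be told apart. The same limit holds for Cd9, Folr2, Csf1r, Mmp12 and Cd52, whose exons also overlap an antisense gene, and for Spp1 and Itgam, which overlap a gene on their own strand.

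Ccr2, the receptor that brings monocytes out of the bone marrow, gave log2 fold changes of the same signs as Cx3cr1. It stood at 0.312, 0.707 and 1.07 TPM in Flpo (lowest, median and highest), at 0.263, 0.461, 0.434, 0.611 and 0.197 TPM in Cre, and at 0.564, 0.725, 0.323, 0.961 and 0.835 TPM in GFP. The groups overlapped. The log2 fold changes were 0.58 in Flpo against Cre (SE 0.36, adjusted p = 0.313), -0.60 in Cre against GFP (SE 0.37, adjusted p = 0.347) and -0.01 in Flpo against GFP (SE 0.35, adjusted p = 0.992).

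Ccl2, the chemokine that binds Ccr2, had 6.75 to 43.7 counts per library. Its level was 0.853, 1.19 and 3.28 TPM in Flpo (lowest, median and highest), 1.54, 0.887, 0.720, 0.821 and 0.720 TPM in Cre, and 2.02, 1.03, 0.500, 1.81 and 1.72 TPM in GFP. A single high library in Flpo (replicate 4) and another in Cre (replicate 1) set the spread of those groups. Its log2 fold change was 0.46 in Flpo against Cre (SE 0.42) and -0.38 in Cre against GFP (SE 0.44).

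Ly6c2, a surface protein of inflammatory monocytes, averaged 3.12 ± 1.53 TPM in Flpo, 2.48 ± 1.37 TPM in Cre and 1.56 ± 0.258 TPM in GFP. The GFP libraries lay between 1.27 and 1.93 TPM, and 5 of 6 Flpo libraries were above them. Its log2 fold change was 0.12 in Flpo against Cre (SE 0.37), 0.84 in Cre against GFP (SE 0.40, adjusted p = 0.207) and 0.96 in Flpo against GFP (SE 0.39, adjusted p = 0.436). Its near copy Ly6c1 stood at 0.0748 to 2.96 TPM over the libraries, so its values are uncertain in the same way. Itgam and Itgax, which encode the integrins CD11b and CD11c, were the least abundant of the 34 genes. Itgam was at 0.0707 to 0.686 TPM and Itgax at 0.183 to 0.907 TPM. Cd52, a glycoprotein of leukocytes and the most abundant gene of this group, averaged 18.7 ± 4.86 TPM in Flpo, 14.2 ± 3.52 in Cre and 16.2 ± 5.10 in GFP, with log2 fold changes of 0.18, 0.01 and 0.19 in Flpo against Cre, Cre against GFP and Flpo against GFP.

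In Flpo against GFP no gene of the 34 was called, where 0.0288% of all genes tested were called, 0% higher and 0.0288% lower. The same held with DESeq2 and with limma-voom. In edgeR's quasi-likelihood test the smallest adjusted p among the 34 was 0.400, for Marco, followed by 0.436 for Ly6c2. No gene had groups that did not overlap in CPM, against 1.55% of all genes tested. None had groups that did not overlap in Flpo against Cre either, against 7.84%.

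Although few genes were called, most of the 34 had estimates on the same side. In Flpo against Cre 31 of 34 log2 fold changes were positive with a median of 0.37. In Cre against GFP 26 of 34 were negative with a median of -0.24, and in Flpo against GFP 24 of 34 were positive with a median of 0.16. Over all genes tested 49.4%, 50.2% and 49.1% were positive in Flpo against Cre, Cre against GFP and Flpo against GFP. The comparisons share libraries and the 34 genes share their cells of origin, so these counts are not separate pieces of evidence. In mean CPM, Flpo was the highest group for 22 genes and Cre the lowest for 26.

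**Figure D3:**
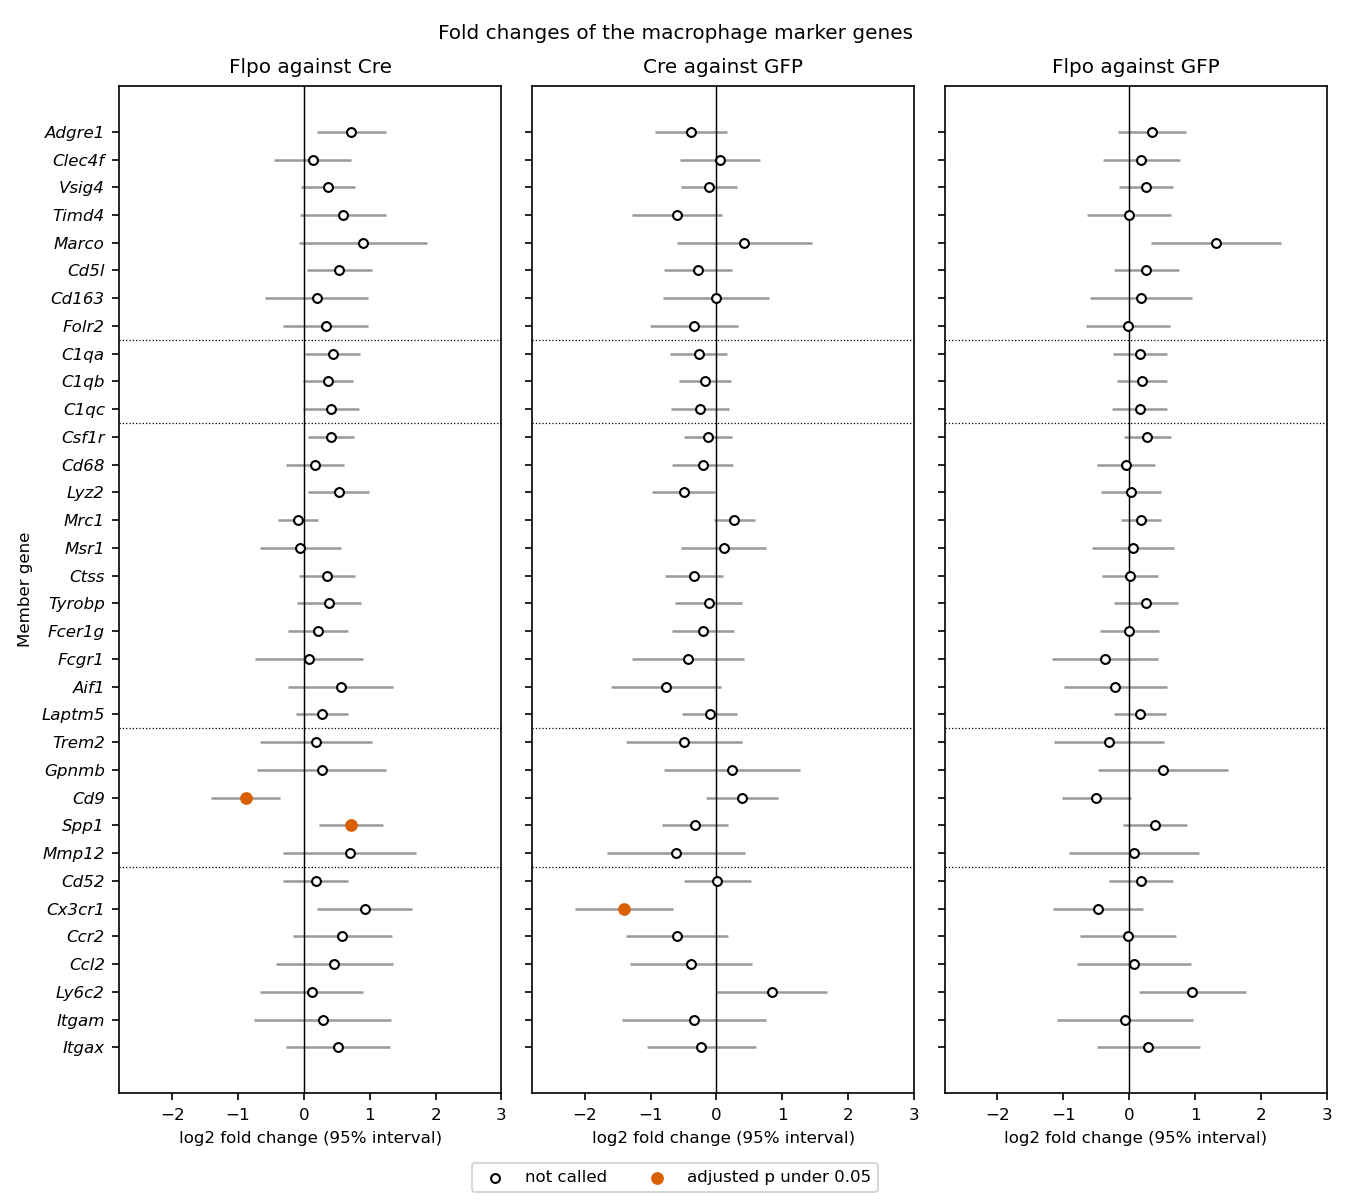
Log2 fold change with its 95% interval for each of the 34 genes (rows, dotted lines between roles) in Flpo against Cre, Cre against GFP and Flpo against GFP. Filled orange points mark an adjusted p under 0.05, which were Cd9 and Spp1 in Flpo against Cre and Cx3cr1 in Cre against GFP, and most other intervals include 0.

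The scale on which libraries are compared affects how many of the 34 pass. On log2(TPM + 1) of the deposited TPM with limma, 9 genes were higher and 0 lower in Flpo against Cre, and with library totals alone 6 were higher and 0 lower. On those scales the median of all genes also moved, by 0.14 and 0.13 in Flpo against Cre, and the calls over all genes split into 2417 higher and 326 lower with TPM and 1810 higher and 454 lower with totals, where TMM scaling gave 1036 higher and 870 lower. The median of the 8 resident genes in Flpo against Cre was 0.45 with TMM, 0.46 on log2(TPM + 1) and 0.59 with totals. None of these was corrected for the shift, and the added constant lowers the value for low genes. Adgre1 gave 0.60 on log2(TPM + 1) and 0.82 on log2(TPM + 0.1), where the more abundant Cd5l gave 0.69 and 0.71.

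Resident and recruited markers were set against each other by their summed TPM. The 8 resident genes summed to 108 ± 39.9 TPM in Flpo (51.8 to 161), 71.1 ± 10.8 TPM in Cre (60.2 to 84.2) and 87.5 ± 20.2 TPM in GFP (60.5 to 111). The 12 lipid-associated and recruited genes summed to 93.8 ± 26.5 TPM in Flpo (62.0 to 131), 69.3 ± 11.2 in Cre (53.3 to 84.1) and 82.1 ± 12.5 in GFP (63.7 to 97.2). The resident genes thus took 52.5 ± 13.7% of the joint sum in Flpo (36.6% to 70.7%), 50.7 ± 5.93% in Cre (47.4% to 61.2%) and 51.3 ± 6.84% in GFP (41.2% to 57.5%). The means of this share differed by less than the SD of any group. Spp1 alone averaged 53.3% of the sum of the 12 genes in Flpo, 38.3% in Cre and 46.6% in GFP. Bile duct cells also express Spp1 and Cd9, so the share does not measure the balance of resident and recruited macrophages. Summed TPM carries the all-gene shift of the TPM scale given above, and the sums were not corrected for it. No test was run on these sums, because the genes were chosen with earlier results known.

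By role, the median log2 fold change in Flpo against Cre was 0.45 for the resident genes, with 8 of 8 positive, and 0.46 for the recruited genes, with 7 of 7 positive. It was 0.41 for the C1q chains and 0.27 for the lipid-associated genes. In Cre against GFP the medians were -0.19 for the resident genes, with 6 of 8 negative, -0.34 for the recruited genes, with 5 of 7 negative, -0.25 for the C1q chains and -0.32 for the lipid-associated genes. In Flpo against GFP they were 0.22, 0.07, 0.17 and 0.08 for the resident, recruited, C1q and lipid-associated genes.

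**Figure D4:**
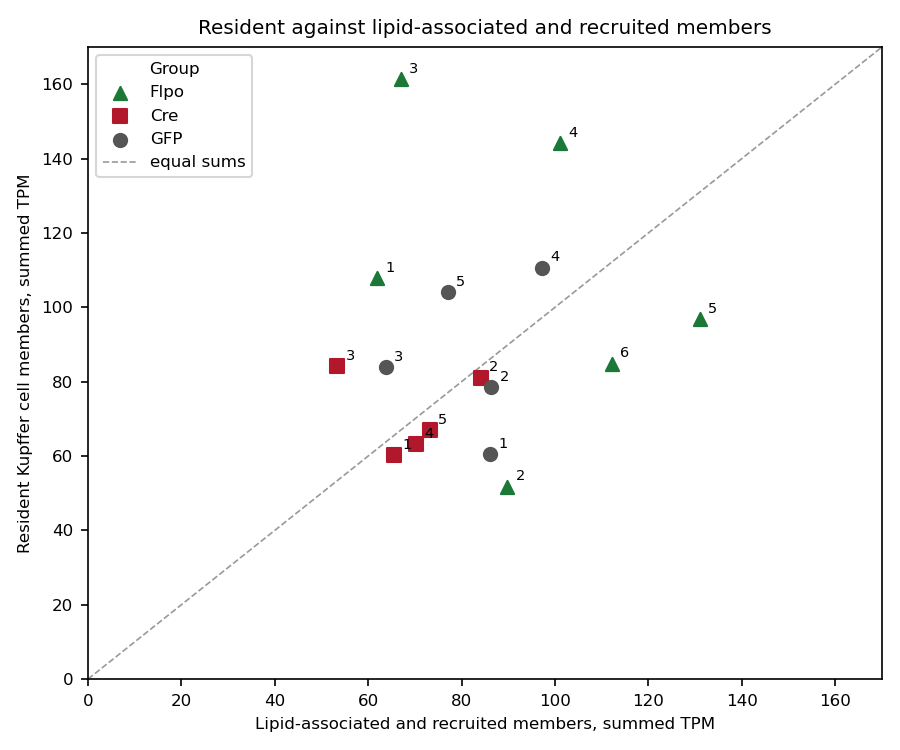
Summed TPM of the 8 resident Kupffer cell genes (vertical axis) against the summed TPM of the 12 lipid-associated and recruited genes (horizontal axis), 1 point per library with its replicate number, and a dashed line where the sums are equal. The 6 Flpo libraries spread from 51.8 to 161 TPM on the vertical axis, and 3 of 6 Flpo, 1 of 5 Cre and 3 of 5 GFP libraries lie above the line.

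The spread between Flpo libraries was wide, and its extremes fell on the same libraries for many genes. Flpo replicate 4 was the highest of the 16 libraries for 11 of the 34 genes and Flpo replicate 3 for 10, while Flpo replicate 2 and Cre replicate 5 were each the lowest for 8. Flpo replicate 3 combined the highest resident share (70.7%) with the lowest levels of Gpnmb, Cd9 and Itgax. Flpo replicate 2 had the lowest resident share (36.6%) and the lowest sum of the resident genes (51.8 TPM). Its Spp1, at 47.9 TPM, was near the Flpo median of 46.7 TPM, and its Cd9, at 16.8 TPM, was the highest in Flpo. Gpnmb, Cd9, Itgax and Spp1 are themselves part of the joint sum from which the share was taken. Cre replicate 5 was lowest for Cd5l, Cd68, Lyz2, Tyrobp, Aif1, Trem2, Mmp12 and Ccr2 and highest for Cd9.

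Other genes of macrophage identity and function were counted from lists that do not include the 34. Over all genes tested 7.45% were higher and 6.26% lower in Flpo against Cre, and 3.97% higher and 5.58% lower in Cre against GFP. Of 14 macrophage lineage factors, 2 were lower in Flpo against Cre, and 2 were higher and 0 lower in Cre against GFP. Id3, a factor required for Kupffer cell development that other liver cells also express, rose in Cre against GFP, with 63.3 ± 32.8 TPM in Cre and 29.0 ± 6.40 TPM in GFP (log2 fold change 1.32, SE 0.32, adjusted p = 0.0174), and its relative Id1 rose with it (1.63, SE 0.34, adjusted p = 0.00564). Both were lower in Flpo against Cre, by -1.16 and -1.48.

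Of 13 tested further genes of lipid-associated macrophages, 5 were higher and 2 lower in Flpo against Cre. That was 53.8% of them, where 13.7% of all genes tested were called. In Cre against GFP 2 were higher and 3 lower, or 38.5%, where 9.55% of all genes tested were called. Ctsb, a lysosomal protease, rose by 0.49 in Flpo against Cre (SE 0.09, adjusted p = 0.00186), and Capg, an actin-capping protein of macrophages, rose by 0.97 (SE 0.23, adjusted p = 0.00968). Fabp5, a fatty acid binding protein, fell by 2.34 (SE 0.36, adjusted p = 4.05e-04), with 3.85 ± 1.14 TPM in Flpo and 16.3 ± 7.75 TPM in Cre. Atp6v0d2, a subunit of the lysosomal proton pump in macrophages and osteoclasts, fell in Cre against GFP, with 0.425 ± 0.326 TPM in Cre and 1.99 ± 1.10 TPM in GFP (log2 fold change -2.06, SE 0.44, adjusted p = 0.00736). Lpl, lipoprotein lipase, rose in the same comparison (1.25, SE 0.26, adjusted p = 0.00589). The members of this list moved in both directions, and several are expressed by hepatocytes and other liver cells as well.

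Of 8 tested scavenger and Fc receptors, 2 were higher in Flpo against Cre and the same number were lower in Cre against GFP. That was 25% of them in each comparison, where 13.7% and 9.55% of all genes tested were called. Cd36, a scavenger receptor and fatty acid transporter of macrophages, endothelium and hepatocytes, averaged 115 ± 18.1 TPM in Flpo, 14.9 ± 9.86 TPM in Cre and 108 ± 29.4 TPM in GFP. Its log2 fold change was 2.80 in Flpo against Cre (adjusted p = 1.28e-05) and -2.72 in Cre against GFP (adjusted p = 2.00e-05). Colec12, a scavenger collectin, moved likewise by 0.59 and -0.61. Of the 13 further Kupffer cell genes, Il18bp, which binds interleukin 18, was higher in Flpo against Cre (0.55, adjusted p = 0.0290). C6, a component of the membrane attack complex of complement, was lower there (-1.63, adjusted p = 0.00155) and higher in Cre against GFP (1.82, adjusted p = 0.00182). Which liver cells gave these changes was not tested.

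Markers of other liver cells moved in the same comparisons, in which 13.7% (Flpo against Cre) and 9.55% (Cre against GFP) of all genes tested were called. Of 8 hepatocyte markers, 2 were lower in Flpo against Cre (Apoa1, -0.89, and Serpina1a, -0.66), and in Cre against GFP 2 were higher (Serpina1a, 0.61, and Apoa1, 0.50) and 1 was lower (Ttr, -0.35). Of 10 stellate cell markers, 6 were higher and 0 lower in Flpo against Cre, or 60%. In Cre against GFP 5 of these markers were lower and 0 higher, or 50%. Their summed level was 110 to 162 TPM in Flpo, 51.0 to 98.4 TPM in Cre and 87.6 to 149 TPM in GFP, and Col1a1, a fibrillar collagen, averaged 3.93 ± 1.70, 1.14 ± 0.486 and 4.38 ± 1.52 TPM in that order. The 10 sinusoidal endothelial markers summed to 34.9 to 73.1 TPM in Flpo, 52.1 to 67.4 in Cre and 45.4 to 66.3 in GFP, of which 1 (Kdr) was lower in Flpo against Cre and higher in Cre against GFP, with Stab2 at 5.07 ± 1.54, 3.79 ± 0.372 and 4.15 ± 0.563 TPM. In Flpo against GFP no gene of any of these lists was called. The part of these cells in the levels of the 34 genes was not tested.

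Neutrophils share Lyz2, Itgam and Fcer1g with macrophages. Of 8 neutrophil markers, only S100a9 passed the filter on low counts, and it was called in no comparison. S100a9 averaged 2.14 ± 1.53 TPM in Flpo, 3.47 ± 2.70 in Cre and 2.66 ± 1.83 in GFP, S100a8 averaged 1.08 ± 0.607, 2.20 ± 1.27 and 1.64 ± 0.748 TPM in that order, and the defining marker Ly6g averaged 0.0200, 0 and 0.0114 TPM. The 8 markers summed to 0.973 to 7.54 TPM in Flpo, 3.32 to 13.4 in Cre and 3.14 to 7.79 in GFP. Their part in the levels of the shared genes was not tested. Dendritic cell markers, which bear on Itgax, summed to 2.17 to 4.35 TPM in Flpo, 2.28 to 3.95 in Cre and 2.33 to 4.02 in GFP, and none of the 7 tested was called in any comparison (edgeR's quasi-likelihood test; 1 of them had an unadjusted p under 0.05, in Cre against GFP).

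The libraries also differed in the levels of circadian clock genes. A score of 12 clock genes, the mean of their standardised log2 CPM signed so that Arntl and its companions count up and the Per genes count down, was -0.99 to -0.30 in Flpo, -0.06 to 1.03 in Cre and -0.47 to 0.55 in GFP. When the score, an alternative added once the data had been seen, entered the fit, no gene of the 34 was called in any comparison. Cx3cr1 then had a log2 fold change of -1.67 in Cre against GFP (adjusted p = 0.0676), while Cd9 and Spp1 had -0.29 and 0.26 in Flpo against Cre (adjusted p = 0.978 and 0.983). All Flpo libraries lay below all Cre libraries in this score, so clock gene level and group cannot be told apart there, and whether the hour of harvest differed is not stated.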

How the data were processed

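RNA was measured in 16 liver libraries, grouped by their titles. Libraries were made from polyA RNA of DNase-treated RNeasy extracts and read as paired 150-base reads, per the labels' protocols. The submitters' processing notes name cutadapt, STAR and the build mm10, without versions. What program counted the reads is not given in the sources used here. The authors deposited estimated counts per gene, 31.7% of them not whole, and TPM for the same libraries. For the 34 members each estimated count was the TPM times 1 factor per gene and library, to within 1.1e-04 on the log2 scale, so these units are not separate measurements. Whether each library is a separate mouse is not labelled, and the p-values measure only variation among these libraries.

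The test on rounded estimated counts used edgeR 4.0.16 (R 4.3.3): filterByExpr with a minimum count of 10, TMM factors, 1 robust quasi-likelihood fit over all 16 libraries, and Benjamini-Hochberg adjustment over 13905 genes at 0.05. Intervals cover 95%. Coordinates are GRCm38 (GENCODE) and promoters RefSeq. The members and all gene lists were chosen with earlier results of these data known. All 34 members are named; of other lists, up to 3 called genes with the smallest adjusted p in a comparison, plus Alb, Col1a1, Stab2, Krt19 and Cd3e. Lyz1, Ly6c1, Ly6g, S100a8, S100a9 and overlapping genes were named outside that rule, as checks on members. The alternatives were DESeq2-type size factors, library totals, no low-count filter, a CPM filter of 1 in 5 libraries, DESeq2 1.42.0, limma-voom (limma 3.58.1), only the compared groups, the replicate number as a block, log2 TPM with a pseudocount of 1 or 0.1, and each library left out. The fit was tested on simulated data with 200 changed genes. A result for 1 gene of the lineage factor list is not reported here.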

Additional observations from a re-analysis of the deposited data

Results flagged for a closer look

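In groups of 4 to 10 libraries, a library was marked when its gap to the nearest of the others was large against the range of its group. Of 120 groups tested, 4 were marked, and chance marks about 1 in 20. Msr1 stood at 0.682 TPM in Flpo replicate 2, below the other Flpo libraries, the next of which was at 1.70 TPM. Ccl2 stood at 3.28 TPM in Flpo replicate 4, above the other Flpo libraries, the next of which was at 1.70 TPM. Ccl2 also stood at 1.54 TPM in Cre replicate 1, above the other Cre libraries, the next of which was at 0.887 TPM. The resident share of summed TPM was 61.2% in Cre replicate 3, above the other Cre libraries, the next of which was at 49.1%.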

How the results depend on the processing

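The cause of each change below was not tested. Over 2751 values of single members under an alternative, 0 reversed a call, 28 lost one, 27 gained one and 2643 were called in neither fit, 139 of these with the other sign. The count of lower members in Cre against GFP was 1, and 0 with the replicate block and with the clock score; without each library in turn it stayed at 1. In Flpo against Cre, higher members numbered 0 with no low-count filter, limma-voom, only the 2 groups compared, the replicate block or the clock score, 2 with DESeq2, 6 with library totals, and 9 and 10 with log2(TPM + 1) and log2(TPM + 0.1); leaving out a library gave 0 to 2. Lower members there numbered 0 with library totals, no low-count filter, both TPM scales and the clock score, and 0 to 1 without a library. Over all genes, Cre against GFP gave 1328 calls, and 834 with only those groups, 2104 and 2172 on the TPM scales and 262 with the clock score. Flpo against GFP gave 4, and 72 with DESeq2, 1 with only those groups, 0 with limma-voom, the block or the clock score, and 0 to 15 without a library. Flpo against Cre gave 1906, and 9 with the clock score.

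The labels give no pairing of libraries by replicate number. Over 15 same-number pairs the correlation of deviations from the group means was -0.156 to 0.117, with 1 over 0.1. Pairs of unlike number were not compared, so these values do not settle whether libraries were paired. With the replicate block, fitted without Flpo replicate 6, all-gene calls were 1352 in Flpo against Cre and 1019 in Cre against GFP, and Cx3cr1 in Cre against GFP had a log2 fold change of -1.33 (adjusted p = 0.0691).

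The resident share depended on the measure. On CPM it was 63.8% in Flpo, 63.7% in Cre and 63.0% in GFP. Without Spp1 and Cd9, an alternative added after seeing the data like the clock score, it was 76.7%, 76.3% and 76.7%. As a median log2 difference between resident and other members it was 1.995, 2.05 and 1.80. All 405 medians of a role under an alternative stayed within the spread between libraries.

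Depth limits the lowest genes: 9 members had fewer than 20 counts in at least 1 library, Gpnmb, Trem2, Mmp12, Cx3cr1, Ccr2, Ccl2, Ly6c2, Itgam and Itgax.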

Other observations

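Genes of antigen presentation and inflammation, which bear on what macrophages do, held few calls. Of all genes tested 13.7% were called in Flpo against Cre, 9.55% in Cre against GFP and 0.0288% in Flpo against GFP. Of the 8 class II presentation genes none was called in any comparison by edgeR's quasi-likelihood test, and 1 had an unadjusted p under 0.05, in Cre against GFP. Their summed level was 112 to 265 TPM in Flpo, 101 to 151 TPM in Cre and 137 to 265 TPM in GFP. Of 8 tested monocyte chemokines and receptors none was called, nor had any an unadjusted p under 0.05, and 7 of 8 log2 fold changes were positive in Flpo against Cre and in Flpo against GFP.

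Of 11 tested cytokine and inflammasome genes, Il18 rose in Flpo against Cre, with 12.8 ± 1.54 TPM in Flpo and 7.05 ± 1.65 TPM in Cre (log2 fold change 0.66, adjusted p = 0.00893), and fell in Cre against GFP, where GFP stood at 12.7 ± 1.87 TPM (-0.68, adjusted p = 0.0126). Myd88, the adaptor of Toll-like receptors, fell in Flpo against Cre (-0.40, adjusted p = 0.0336). Csf2rb, the shared beta chain of the receptors for GM-CSF and interleukin 3, was the only called gene of 5 growth factor and receptor genes and was lower in Flpo against Cre (-1.03, SE 0.29, adjusted p = 0.0241).

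Lymphocyte markers were low. The 12 T and NK cell markers summed to 2.81 to 8.97 TPM in Flpo, 3.88 to 6.52 in Cre and 3.78 to 5.59 in GFP, and Cd3e averaged 0.286 ± 0.225, 0.368 ± 0.0819 and 0.336 ± 0.140 TPM. Cd4 alone of them was called, with 0.187 ± 0.0598 TPM in Flpo, 1.04 ± 0.941 TPM in Cre and 0.336 ± 0.162 TPM in GFP, at log2 fold changes of -2.60 in Flpo against Cre (adjusted p = 0.00127) and 1.76 in Cre against GFP (adjusted p = 0.0262). The 6 B cell markers had 0 calls in any comparison, with 2 at an unadjusted p under 0.05 in Flpo against Cre.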
